A study of Mus musculus with 12 samples.

Results

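The 10 genes described here encode the MHC class II antigen presentation apparatus and its master regulator, and they were chosen by name: H2-Aa, H2-Ab1, H2-Eb1, H2-DMa, H2-DMb1, H2-DMb2, H2-Oa, H2-Ob, Cd74 and Ciita. All 10 are among the 24421 gene symbols of the count tables, and all 10 passed the filter on low counts that left 12878 genes for testing. RNA was sequenced from splenocytes carrying B220, a form of the CD45 protein found on B lineage cells and on plasmacytoid dendritic cells, from 12 mice aged 4 to 5 weeks. There were 4 genotypes with 3 mice each, and every library came from a separate mouse.

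EuMyc Max KO mice carried the EuMyc transgene and a conditional knockout of Max. EuMyc mice carried the transgene with intact Max, a genotype labelled EuMyc Max WT, and the series title calls such transgenic cells premalignant. Max KO mice had the conditional knockout without the transgene. WT mice, labelled Max WT, had neither. The EuMyc transgene places Myc under the enhancer of the immunoglobulin heavy chain locus, which limits it as a model to the B lineage. MAX is the partner that MYC needs to bind DNA. The labels name neither the Cre driver of the knockout nor the mouse strain.

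B cells present peptides from internalised antigen to CD4 T cells on MHC class II molecules, which are heterodimers of an alpha and a beta chain. The invariant chain Cd74 escorts new dimers to endosomes and leaves a fragment, CLIP, in the groove, which H2-DM then exchanges for peptide, while H2-O inhibits H2-DM and is largely a B cell protein. CIITA does not bind DNA itself. It is recruited by RFX, CREB and NF-Y, which sit on the X and Y boxes upstream of class II genes, and its level largely sets class II transcription. B cells keep class II genes active from early stages until plasma cell differentiation.

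Assigned reads ranged from 14973332 to 21671601 among the libraries. Levels are given as CPM, a gene's reads relative to its library's reads on the 12878 genes tested, with library sizes scaled by the TMM method. Reads on Max itself remained in every group, at 108, 104 and 102 CPM in EuMyc Max KO, a mean of 128 ± 1.87 CPM (SD, n = 3) in EuMyc, 102, 102 and 99.8 CPM in Max KO and 139, 110.3 and 108 CPM in WT mice. Max fell by 0.29 on the log2 scale in EuMyc Max KO against EuMyc (adjusted p = 0.00462) and was not called in Max KO against WT (-0.23, adjusted p = 0.0623), by edgeR's quasi-likelihood test. Gene-level counts do not separate a deleted part of Max from the rest of the gene, and the extent of the deletion is not in the labels, so they are a weak check of the knockout labels. Myc averaged 522 ± 39.5 CPM in EuMyc Max KO, 1010.4 ± 37.1 CPM in EuMyc, 126 ± 8.37 CPM in Max KO and 106 ± 9.37 CPM in WT mice (SD, n = 3 each). The summed level of 9 defining B cell genes, such as Ms4a1 and Cd79b, was 8196 to 9921 CPM in EuMyc Max KO, 4472 to 5365 CPM in EuMyc, 10047 to 11094 CPM in Max KO and 11691 to 12659.6 CPM in WT mice, and none of the 9 was at 0 in any group.

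Of the 10 genes, 8 lie within the MHC on mouse chromosome 17 (mm10, GENCODE vM21). From H2-Oa, whose gene spans chr17:34092340-34095234 on the forward strand, the class II region runs through H2-DMa, H2-DMb2, H2-DMb1, H2-Ob, H2-Ab1 and H2-Aa to H2-Eb1 at chr17:34305867-34316674 on the forward strand. H2-Aa at chr17:34282744-34287823 is the sole member of the 10 on the reverse strand. RefSeq promoter windows on build GRCm38.p6, from 250 bases before to 50 after the annotated start, were found for 7 of the 10 genes, all but H2-Ab1, Cd74 and Ciita. In 5 of the 7, the letters GNAAC of the X box were followed after 24 to 30 bases by ATTGG, the letters of the Y box bound by NF-Y. They are shown because they are the elements through which RFX, NF-Y and CIITA are known to act on this gene family. Each is printed 5′ to 3′ on the gene's own strand, with 10 flanking bases on either side and the X and Y letters in capitals.
H2-Oa (chr17:34092293-34092350, forward strand): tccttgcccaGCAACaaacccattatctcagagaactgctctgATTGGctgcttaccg
H2-DMb1 (chr17:34153087-34153144, forward strand): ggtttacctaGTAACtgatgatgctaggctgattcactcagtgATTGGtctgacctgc
H2-Ob (chr17:34238808-34238862, forward strand): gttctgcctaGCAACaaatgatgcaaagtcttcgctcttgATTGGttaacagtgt
H2-Aa (chr17:34287857-34287914, reverse strand): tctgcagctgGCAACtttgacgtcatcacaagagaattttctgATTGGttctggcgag
H2-Eb1 (chr17:34305766-34305822, forward strand): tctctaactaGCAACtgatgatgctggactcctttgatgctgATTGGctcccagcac

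The spacer between the X and Y letters was 28 bases in H2-Oa, H2-DMb1 and H2-Aa, 27 bases in H2-Eb1 and 25 bases in H2-Ob. The X letters began 76 to 94 bases and the Y letters 43 to 61 bases before the annotated start. Searched on both strands, the same pair of letters occurred in 391 of 32851 promoter windows, or 1.19%. ATTGG alone, or its reverse complement, was found in windows of all 7 genes and in 37.4% of all windows. The palindrome CACGTG, the E-box that MYC and MAX dimers prefer, was in none of the 7 genes' windows and in 7.15% of all windows. A match describes letters and is not a measured binding site, and its absence says only that the letters are not in these windows.

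**Figure D1:**
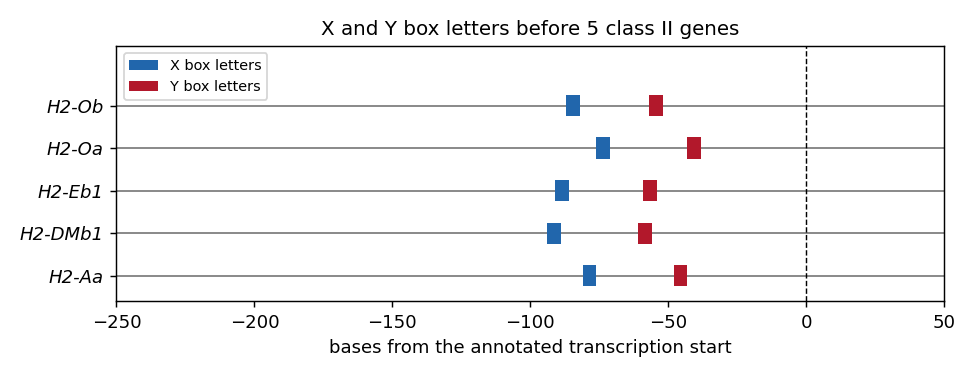
Position of the X box letters (blue) and the Y box letters (red) in the promoter windows of 5 class II genes, in bases from the annotated transcription start (dashed line at 0). In every gene the X letters begin 76 to 94 bases and the Y letters 43 to 61 bases before the start.

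Class II genes took a far smaller share of the reads in EuMyc mice than in WT mice. CPM is relative to a library's reads and does not give the amount of RNA per cell. Together the 10 genes took 0.513% ± 0.0850 of the assigned reads in EuMyc mice and 2.44% ± 0.0994 in WT mice (SD, n = 3 each). All 10 genes fell in EuMyc against WT, by 3.90-fold for H2-DMa to 5.96-fold for H2-Oa in mean CPM, where 34.9% of the 12878 genes tested were lower, 36.7% were higher and 71.6% were called in either direction. The median of the 10 log2 fold changes was -2.12, against 0.01 over all genes tested. A gene was called at an adjusted p under 0.05 in edgeR's quasi-likelihood test after Benjamini-Hochberg adjustment over all genes, and for the 10 genes this p ran from 1.39e-09 to 6.28e-07. In cells sorted in bulk, fewer class II positive cells and less class II RNA per cell cannot be told apart.

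Ciita, the coactivator, encoded on chromosome 16 at chr16:10480059-10528418 on the forward strand, stood at 175, 163 and 222 CPM in EuMyc mice and at 757, 687 and 790.3 CPM in WT mice. The highest EuMyc library thus lay well under the lowest WT library. How many of all genes separate EuMyc from WT libraries in this way was not counted. Its mean was 3.99-fold lower in EuMyc mice (adjusted p = 1.99e-08, quasi-likelihood test of edgeR, Benjamini-Hochberg adjusted), with a standard error of 0.13 on the log2 scale.

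H2-Aa and H2-Ab1, the alpha and beta chains of the I-A molecule, fell together with Ciita. H2-Aa had 663, 592 and 887 CPM in EuMyc mice, against 3838, 3501 and 3629 CPM in WT mice. H2-Ab1 had 690.0, 667 and 871 CPM in EuMyc mice, against 3323, 3004 and 2978 CPM in WT mice. No library of either group reached the range of the other, a separation not counted over all genes. The log2 fold changes were -2.36 (SE 0.14) for H2-Aa and -2.06 (SE 0.12) for H2-Ab1.

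H2-Eb1, the beta chain of the I-E molecule, averaged 677 ± 99.2 CPM in EuMyc mice and 2967 ± 182 CPM in WT mice (SD, n = 3 each), a log2 fold change of -2.13. Its alpha partner is listed in the tables as a pseudogene, H2-Ea-ps, with 0 to 3 reads per library in all 4 groups, too few to compare. H2-Eb2, a related beta chain gene outside the 10, averaged 36.4 ± 4.49 CPM in EuMyc mice and 189 ± 10.7 CPM in WT mice (SD, n = 3 each), and it also fell, by 2.37 on the log2 scale.

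Cd74, the invariant chain, was the most abundant of the 10 transcripts and is encoded outside the MHC, on chromosome 18. It stood at 2498, 2297 and 3148 CPM in EuMyc mice and at 12326, 11070.3 and 10889.8 CPM in WT mice. The groups did not overlap, which was not counted over all genes. The log2 fold change was -2.11 (SE 0.11, adjusted p = 4.46e-09 in the edgeR quasi-likelihood test, Benjamini-Hochberg adjusted).

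The peptide exchange genes fell as well. H2-DMa, the alpha chain of H2-DM, averaged 98.8 ± 18.4 CPM in EuMyc and 385 ± 24.4 CPM in WT mice (SD, n = 3 each). H2-DMb1 had 37.6, 34.5 and 44.5 CPM in EuMyc mice, against 165, 163 and 163 CPM in WT mice. H2-DMb2, the second beta chain gene of mice, averaged 56.2 ± 12.7 CPM in EuMyc and 259.7 ± 10.2 CPM in WT mice (SD, n = 3 each). Their log2 fold changes were -1.96 for H2-DMa, -2.07 for H2-DMb1 and -2.21 for H2-DMb2. H2-DMb1 shares 22.7% of its 50-base stretches with H2-DMb2, so the split of reads between these neighbours is uncertain.

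The inhibitor subunits gave the lowest log2 fold change of the 10 for H2-Oa and the third lowest for H2-Ob. H2-Oa, the alpha chain of H2-O, had 34.0, 30.3 and 56.5 CPM in EuMyc mice and 252, 237 and 232 CPM in WT mice, a log2 fold change of -2.58 (SE 0.20). H2-Ob, the beta chain, had 259, 223 and 323 CPM in EuMyc mice and 1305, 1344 and 1239.9 CPM in WT mice, a log2 fold change of -2.27 (SE 0.13). All EuMyc libraries lay below all WT libraries for both genes, but the share of all genes separated this way was not counted. The annotation places 321 exon bases of H2-Oa, 22.8% of its exon length, under BC051537 on the opposite strand, 360 bases of H2-DMa, 10.4%, under Brd2, and 329 bases of Ciita, 3.45%, under Dexi. The strand setting of the counting is not given in the sources used here, so reads of those stretches cannot be assigned to a strand.

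**Figure D2:**
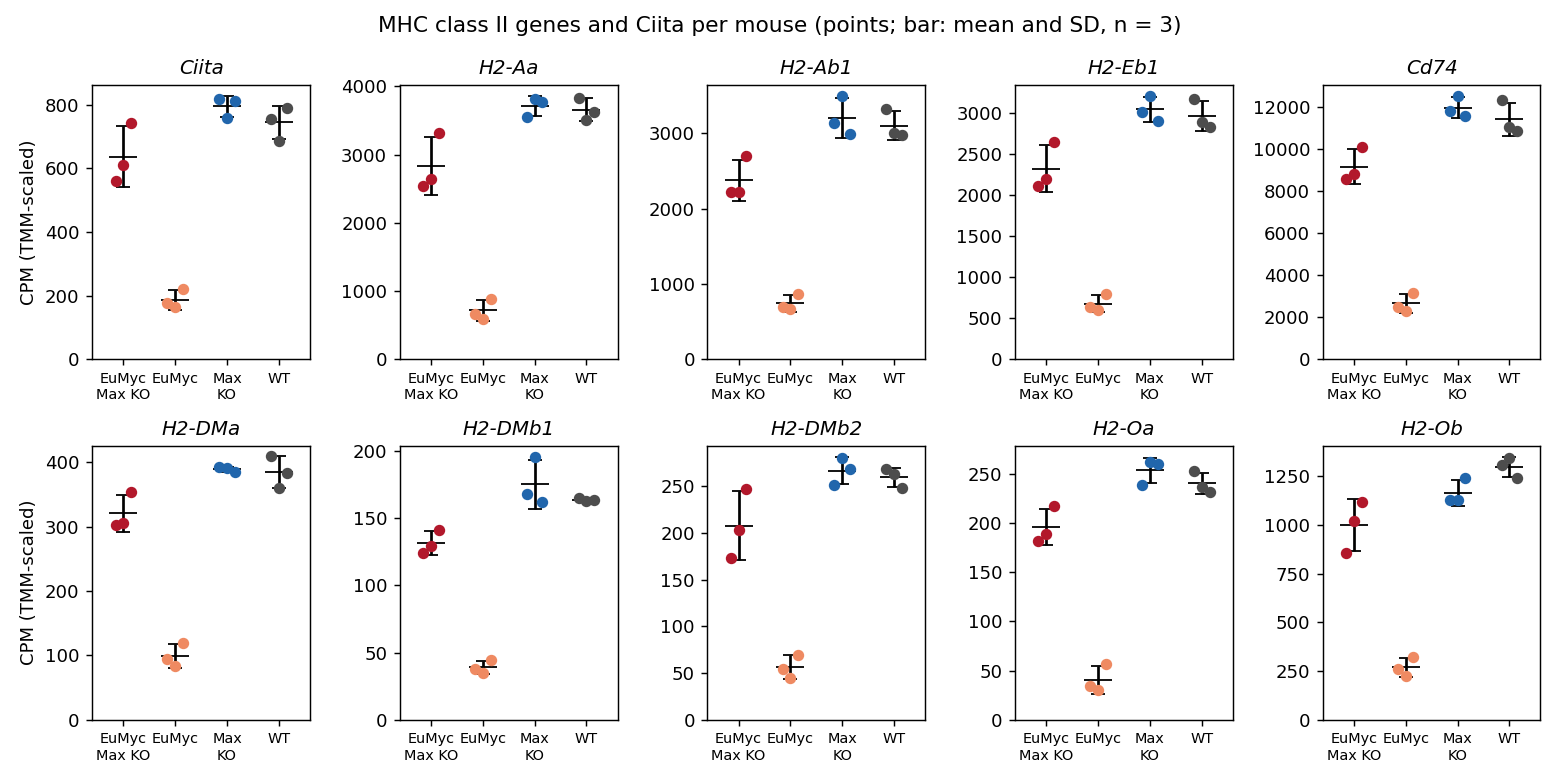
Level of each of the 10 genes in CPM (vertical axis, from 0) in EuMyc Max KO, EuMyc, Max KO and WT mice. Points are mice, and bars are the mean and SD of 3 mice. In every panel the 3 EuMyc points lie below all 9 other points. The share of all genes with this separation was not counted.

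The genes of B cell maturity moved in the same libraries, in a comparison where 34.9% of all genes were lower, 36.7% higher and 71.6% called. The summed level of 9 mature B cell genes, such as Cr2 and Fcer2a, was 437 to 633 CPM in EuMyc and 4018 to 4541 CPM in WT mice, and 9 of 9 were called lower. The summed level of 13 pro-B and pre-B cell genes, such as Rag1 and Vpreb1, was 1269 to 1314 CPM in EuMyc and 174 to 218 CPM in WT mice. Of the 12 tested, 10 were called higher and 1 lower. Dendritic cells and macrophages can also carry class II. The 16 dendritic cell markers summed to 122 to 150.4 CPM in EuMyc and 365 to 450.4 CPM in WT mice (14 of 16 lower, 1 higher), and the 18 macrophage and monocyte markers to 1322 to 1606 CPM in EuMyc and 2396 to 3043 CPM in WT mice (14 of 18 lower). No marker of either list was at 0. Of the T cell markers 11 of 13 were lower and 2 higher, at sums of 88.7 to 114 CPM in EuMyc and 92.4 to 120.3 CPM in WT mice, and 8 of 10 NK cell markers were lower. Erythroid markers summed to 715 to 844 CPM in EuMyc and 159 to 411 CPM in WT mice, with 5 of 9 higher. The part of cell composition in the class II values was not tested.

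Loss of Max in transgenic mice was accompanied by a much larger share of reads on class II genes. The 10 genes took 1.96% ± 0.236 of the assigned reads in EuMyc Max KO mice and 0.513% ± 0.0850 in EuMyc mice (SD, n = 3 each). All 10 rose in EuMyc Max KO against EuMyc, with log2 fold changes of 1.68 for H2-Ab1 to 2.28 for H2-Oa, where 37.6% of all genes tested were higher, 36.1% were lower and 73.7% were called in either direction. The median of the 10 was 1.79, against 0.03 over all genes tested. Adjusted p-values of the 10 ran from 5.48e-09 to 1.64e-06 in the edgeR quasi-likelihood test, Benjamini-Hochberg adjusted. This comparison and that of EuMyc with WT share the EuMyc libraries, so their opposite signs are not independent of each other.

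Ciita had 559, 609.6 and 743 CPM in EuMyc Max KO mice, against 175, 163 and 222 CPM in EuMyc mice, a log2 fold change of 1.77 (SE 0.12). H2-Aa had 2539, 2646 and 3316 CPM in EuMyc Max KO mice, against 663, 592 and 887 CPM in EuMyc mice, a log2 fold change of 1.99 (SE 0.14). Cd74 had 8573, 8816 and 10116 CPM in EuMyc Max KO mice, against 2498, 2297 and 3148 CPM in EuMyc mice, a log2 fold change of 1.79 (SE 0.11). Every EuMyc Max KO library was above every EuMyc library for each of the 10 genes, the coactivator, the presenting chains and the chaperone alike. How many of all genes were separated in this way was not counted.

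Among the H2-DM genes, H2-DMa averaged 321 ± 28.5 CPM in EuMyc Max KO and 98.8 ± 18.4 CPM in EuMyc mice, and H2-DMb2 averaged 208 ± 37.4 CPM in EuMyc Max KO and 56.2 ± 12.7 CPM in EuMyc mice (SD, n = 3 each). H2-DMb1 had 124, 129 and 141 CPM in EuMyc Max KO mice and 37.6, 34.5 and 44.5 CPM in EuMyc mice. H2-Oa had 182, 188 and 217 CPM in EuMyc Max KO mice and 34.0, 30.3 and 56.5 CPM in EuMyc mice. Exchange catalyst and inhibitor were thus both higher with Max lost, by log2 fold changes of 1.70 to 1.89 for the 3 H2-DM genes, 2.28 for H2-Oa and 1.89 for H2-Ob.

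The same 3 EuMyc Max KO libraries differed in genes of other cell types, in a comparison where 37.6% of all genes were higher and 36.1% lower. Their erythroid markers summed to 5867, 3960.3 and 1156 CPM, against 715 to 844 CPM in EuMyc mice, and their macrophage and monocyte markers to 8043, 5623 and 3997 CPM, against 1322 to 1606 CPM in EuMyc mice. Of the erythroid list Hbb-bt was at 0 in EuMyc Max KO mice, and Hba-a1 and Hbb-bt were at 0 in the other 3 groups. The mature B cell genes summed to 3231 to 3987 CPM in EuMyc Max KO and 437 to 633 CPM in EuMyc mice, with 9 of 9 higher. Dendritic cell markers summed to 293 to 351 CPM in EuMyc Max KO and 122 to 150.4 CPM in EuMyc mice, with 14 of 16 higher and 1 lower. The pro-B and pre-B cell genes summed to 212 to 272 CPM in EuMyc Max KO and 1269 to 1314 CPM in EuMyc mice, with 7 of 12 lower and 1 higher. Of the neutrophil markers 8 of 8, of the NK cell markers 10 of 10 and of the T cell markers 11 of 13 were higher, with 1 T cell marker lower. Without any 1 of the 12 libraries, all 10 class II genes were still called higher. The part of these cells in the class II values was not tested.

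In mice without the transgene, no difference with loss of Max was detected in the 10 genes. They took 2.59% ± 0.119 of the assigned reads in Max KO mice and 2.44% ± 0.0994 in WT mice (SD, n = 3 each). None of the 10 was called in Max KO against WT, where 15% of all genes tested were called, 7.27% higher and 7.74% lower. None of the 10 had an unadjusted p under 0.05 in edgeR's quasi-likelihood test, and DESeq2's Wald test called none either. Log2 fold changes ran from -0.15 for H2-Ob to 0.10 for Ciita and H2-DMb1, with adjusted p-values of 0.436 to 0.935. The 95% confidence intervals of the 10 spanned -0.42 to 0.48, from the lowest bound, for H2-Ob, to the highest, for H2-Oa.

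Ciita had 818, 758 and 812 CPM in Max KO mice and 757, 687 and 790.3 CPM in WT mice. Cd74 had 11819.5, 12548 and 11578 CPM in Max KO mice and 12326, 11070.3 and 10889.8 CPM in WT mice. H2-Aa averaged 3713 ± 144 CPM in Max KO and 3656 ± 170.0 CPM in WT mice (SD, n = 3 each). The ranges of both groups overlapped for all 10 genes, and overlap was not counted over all genes. Same-numbered Max KO and WT libraries deviated together, and within these 3 pairs Ciita was higher in Max KO in 3, 8 of the other genes in 2 and H2-Ob in 1. A paired fit of these 6 libraries gave adjusted p-values of 0.257 to 0.817 for the 10 genes in edgeR's quasi-likelihood test, with Ciita at a log2 fold change of 0.11 (SE 0.08). Macrophage and monocyte markers summed to 3803 to 5507 CPM in Max KO and 2396 to 3043 CPM in WT mice, with 5 of 18 higher. Dendritic cell markers summed to 395 to 586 CPM in Max KO and 365 to 450.4 CPM in WT mice, with 2 of 16 higher. Over all genes 7.27% were higher in Max KO against WT.

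Whether the effect of losing Max differed between transgenic and other mice was tested by the interaction, the log2 fold change of EuMyc Max KO over EuMyc minus that of Max KO over WT. It was called for all 10 genes and positive for all 10, where 27.8% of all genes tested had a positive, 27.9% a negative and 55.7% any interaction at this threshold. The values ran from 1.63 for H2-Ab1 to 2.20 for H2-Oa, with a median of 1.73 against 0.02 over all genes tested. Ciita had an interaction of 1.68 (SE 0.17) and Cd74 of 1.72 (SE 0.16). Adjusted p-values of the 10 ran from 6.24e-07 to 5.2e-05 in the edgeR quasi-likelihood test, Benjamini-Hochberg adjusted.

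**Figure D3:**
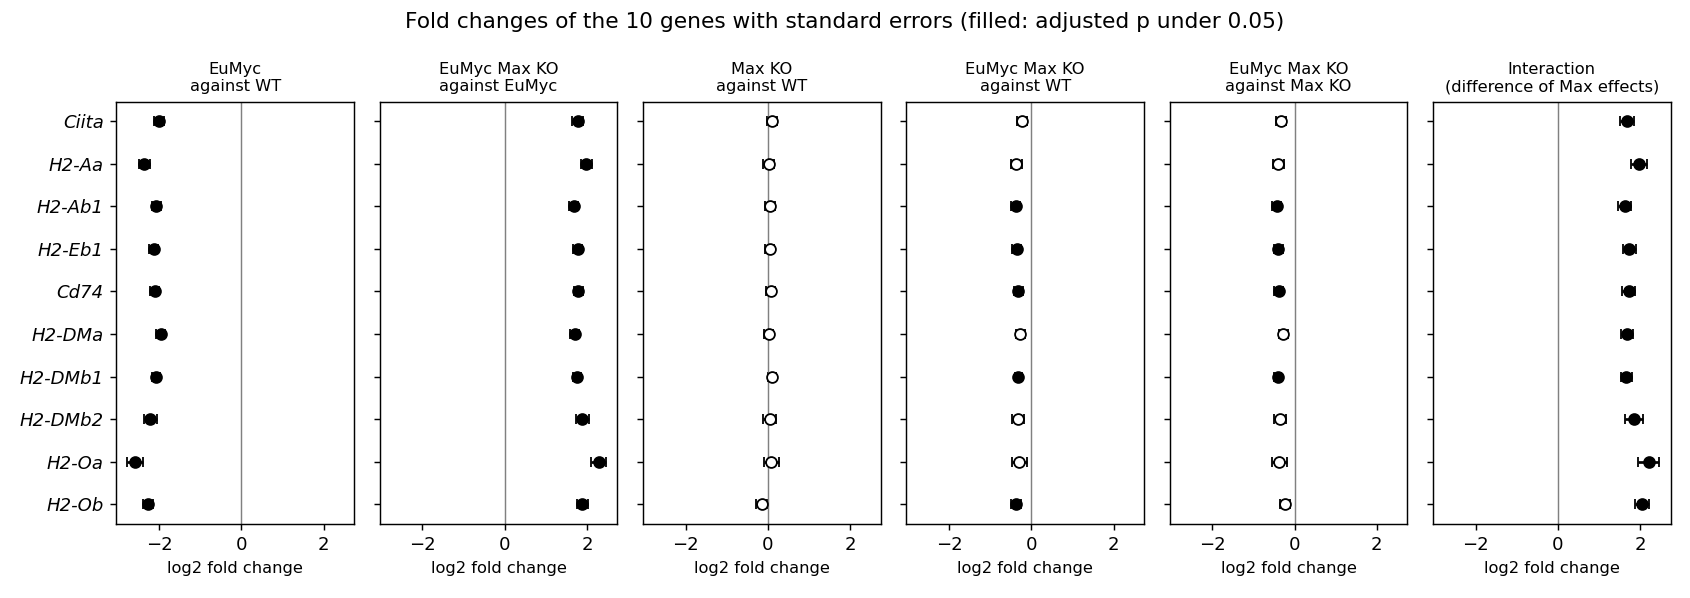
Log2 fold change (horizontal axis) of each of the 10 genes in 5 comparisons and in the interaction, the difference between the Max effects with and without the transgene. Bars are standard errors, filled points have an adjusted p under 0.05 and open points do not. The 10 points lie near -2 in EuMyc against WT, near 2 in EuMyc Max KO against EuMyc and around 0 in Max KO against WT.

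In EuMyc Max KO mice the means of all 10 genes lay under those of WT and of Max KO mice, but only some of the differences passed the test. Against WT, 5 of the 10 fell in EuMyc Max KO mice, where 10.8% of all genes tested were lower, 17% were higher and 27.8% were called in either direction. They were H2-Ab1 (-0.38, adjusted p = 0.0231), H2-Eb1 (-0.35, adjusted p = 0.0292), Cd74 (-0.32, adjusted p = 0.0475), H2-DMb1 (-0.32, adjusted p = 0.0212) and H2-Ob (-0.38, adjusted p = 0.0382), by the edgeR quasi-likelihood test, Benjamini-Hochberg adjusted. The other 5 had log2 fold changes of -0.37 to -0.22. Ciita, at 559, 609.6 and 743 CPM in EuMyc Max KO mice and 757, 687 and 790.3 CPM in WT mice, was the sole gene of the 10 whose groups overlapped (-0.22, adjusted p = 0.186). Separation of these groups was not counted over all genes. Without WT replicate 1, EuMyc Max KO replicate 1 or EuMyc Max KO replicate 2 the count of 5 dropped to 0, and without EuMyc Max KO replicate 3 it was 9.

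Against Max KO mice, which share the knockout, 4 of the 10 fell in EuMyc Max KO mice, where 3.69% of all genes tested were lower, 10.7% were higher and 14.4% were called in either direction. They were H2-Ab1 (-0.43, adjusted p = 0.0224), H2-Eb1 (-0.39, adjusted p = 0.0308), Cd74 (-0.39, adjusted p = 0.0342) and H2-DMb1 (-0.41, adjusted p = 0.0100), by the edgeR quasi-likelihood test, Benjamini-Hochberg adjusted. H2-DMb1 had 124, 129 and 141 CPM in EuMyc Max KO mice, against 168, 196 and 162 CPM in Max KO mice. For all 10 genes every EuMyc Max KO library lay below every Max KO library, but the share of all genes separated this way was not counted. Leaving out single libraries gave 1 to 8 calls, with 1 call without Max KO replicate 1 or 2 or EuMyc Max KO replicate 1 or 2, and 8 without EuMyc replicate 3 or EuMyc Max KO replicate 3.

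Some genes of other cell types were higher in the same EuMyc Max KO libraries against WT, where 17% of all genes were higher and 10.8% lower. Called higher were 9 of 9 erythroid, 8 of 8 neutrophil and 13 of 18 macrophage and monocyte markers. Of the dendritic cell markers 2 of 16 were higher and 4 lower, and 3 of 13 T cell and 3 of 10 NK cell markers were higher. Against Max KO, 10.7% of all genes were higher and 3.69% lower. Higher there were 7 of 9 erythroid, 0 of 8 neutrophil and 0 of 18 macrophage and monocyte markers. No dendritic cell marker was higher and 4 of 16 were lower, and no T cell or NK cell marker was called. Neutrophil markers summed to 36.8 to 281 CPM in EuMyc Max KO, 27.8 to 167 CPM in Max KO and 13.2 to 22.6 CPM in WT mice, and erythroid markers to 1156 to 5867 CPM in EuMyc Max KO, 228 to 531 CPM in Max KO and 159 to 411 CPM in WT mice. Macrophage and monocyte markers summed to 3997 to 8043 CPM in EuMyc Max KO, 3803 to 5507 CPM in Max KO and 2396 to 3043 CPM in WT mice. Of the 9 defining B cell genes, 6 were called lower against WT and 1 against Max KO, and their sums were 8196 to 9921 CPM in EuMyc Max KO, 10047 to 11094 CPM in Max KO and 11691 to 12659.6 CPM in WT mice. Their part in the lower class II values was not tested.

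The 10 genes also moved together from mouse to mouse within the transgenic groups. EuMyc replicate 3 was the highest and EuMyc replicate 2 the lowest of its group for all 10 genes. EuMyc Max KO replicate 3 was the highest and EuMyc Max KO replicate 1 the lowest of its group for all 10. Among Max KO mice, replicate 2 was highest for 7 genes, and among WT mice, replicate 1 was highest for 8. How many of all genes share these orders was not counted. The coefficient of variation of Ciita was 14.9% in EuMyc Max KO, 16.7% in EuMyc, 4.18% in Max KO and 7.08% in WT mice, and that of H2-Oa was 9.51% in EuMyc Max KO, 35.2% in EuMyc, 5.09% in Max KO and 4.49% in WT mice. H2-DMb1 varied otherwise, with 6.67% in EuMyc Max KO, 13.2% in EuMyc, 10.3% in Max KO and 0.785% in WT mice. EuMyc Max KO replicate 1, lowest for class II, had the highest erythroid and macrophage sums, and replicate 3, highest for class II, had the lowest. What part those cells have in this order was not tested.

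Levels can be compared between genes only per length of transcript. Per kilobase of the longest coding transcript, Cd74 was first in all 4 groups, with 6502 ± 588 CPM in EuMyc Max KO, 1878 ± 315 CPM in EuMyc, 8498 ± 358 CPM in Max KO and 8106 ± 555 CPM in WT mice (SD, n = 3 each). In WT mice it was followed per kilobase by H2-Aa (3241 ± 151 CPM), H2-Ab1 (2559 ± 158 CPM) and H2-Eb1 (1778 ± 109 CPM). The accessory genes came next, with H2-Ob at 485 ± 19.7 CPM, H2-Oa at 221 ± 9.91 CPM, H2-DMa at 192 ± 12.2 CPM and H2-DMb2 at 175 ± 6.85 CPM per kilobase. Ciita, at 124 ± 8.78 CPM, and H2-DMb1, at 117 ± 0.915 CPM per kilobase, were last. In WT mice the ranges of H2-DMa and H2-DMb2 overlapped, as did those of Ciita and H2-DMb1, and the other neighbours in the order were separate.

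The order was much the same in the other groups. In EuMyc mice H2-Aa (633 ± 136 CPM) and H2-Ab1 (613 ± 92.3 CPM per kilobase) overlapped, as did all neighbours from H2-DMa down to H2-DMb1. H2-Oa stood sixth in EuMyc Max KO, Max KO and WT mice and eighth in EuMyc mice. With the length of all exons of a gene merged, an alternative added after seeing the data, the presenting chains changed places in WT mice, with 1526 CPM for H2-Eb1, 1208 CPM for H2-Ab1 and 963 CPM for H2-Aa per kilobase. The order of the 3 chains therefore rests on the choice of length.

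The proportions between the parts of the pathway were compared as ratios of read counts within each library, which do not depend on how libraries are scaled. H2-DM (3 genes summed) to H2-O (2 genes summed) had mean log2 ratios of -0.85 ± 0.07 in EuMyc Max KO, -0.67 ± 0.03 in EuMyc, -0.77 ± 0.10 in Max KO and -0.93 ± 0.07 in WT mice (SD, n = 3 each). Cd74 to the 3 presenting chains stayed between 0.23 and 0.31 as group means. The chains to Ciita stood at 3.57 ± 0.05 in EuMyc Max KO, 3.52 ± 0.01 in EuMyc, 3.65 ± 0.13 in Max KO and 3.71 ± 0.11 in WT mice (SD, n = 3 each).

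For each of 6 ratios, the difference with against without the transgene and the difference with against without loss of Max were tested, each within the levels of the other factor. None of these 12 exact two-sided permutation tests passed Benjamini-Hochberg adjustment at 0.05, with 0.005 the smallest p the design allows. The smallest unadjusted p was 0.025, for the chains to Ciita, which was 0.14 lower on the log2 scale with the transgene (adjusted p = 0.18, exact permutation test). Cd74 to chains was 0.05 higher with the transgene (p = 0.04, adjusted p = 0.18, exact permutation test), and so was H2-Eb1 to the H2-A chains (p = 0.045, adjusted p = 0.18, exact permutation test).

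H2-Aa to H2-Ab1, the partner chains of I-A, was lowest in EuMyc mice. Its log2 ratio was 0.19, 0.25 and 0.30 in EuMyc Max KO, -0.06, -0.17 and 0.02 in EuMyc, 0.18, 0.13 and 0.34 in Max KO and 0.21, 0.22 and 0.29 in WT mice. All 3 EuMyc libraries lay under all 9 others. For the chains to Ciita they did so too, at 3.50, 3.52 and 3.52 against a lowest other value of 3.54 in EuMyc Max KO mice. For H2-Aa to H2-Ab1 the transgene difference, averaged over both Max states, was -0.14 (p = 0.085, adjusted p = 0.204, exact permutation test). The Max loss difference, averaged over both transgene states, was 0.15 (p = 0.075, adjusted p = 0.204, exact permutation test). H2-DMb2 to H2-DMb1 averaged 0.65 ± 0.16 in EuMyc Max KO, 0.52 ± 0.14 in EuMyc, 0.61 ± 0.11 in Max KO and 0.67 ± 0.05 in WT mice (SD, n = 3 each), within the spread of the libraries.

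**Figure D4:**
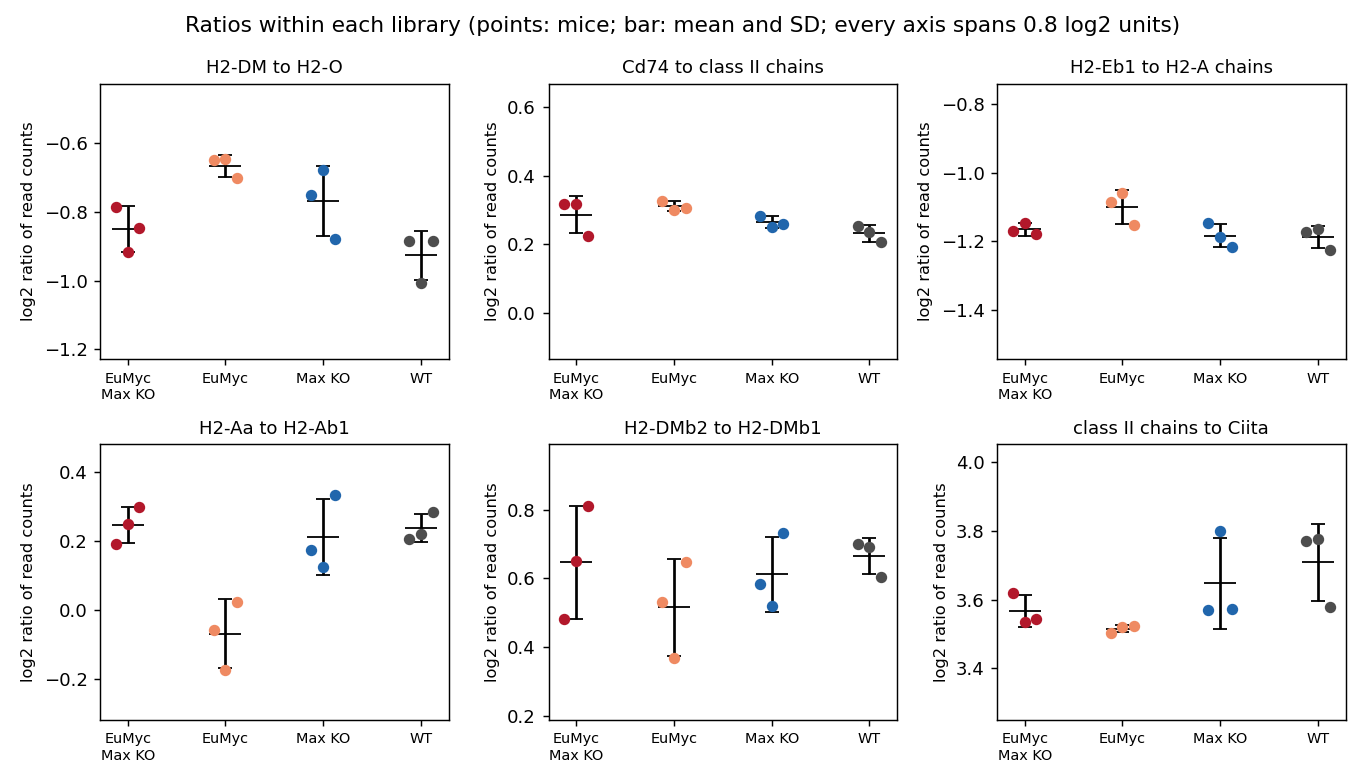
Log2 ratio of read counts within a library for 6 pairs of class II genes or sums of genes, in EuMyc Max KO, EuMyc, Max KO and WT mice. Points are mice, bars are the mean and SD of 3 mice, and each axis spans the same 0.8 log2 units. In the panel of H2-Aa to H2-Ab1 the 3 EuMyc points, from -0.17 to 0.02, lie below the other 9, of which the lowest is 0.13.

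Of 7 factors that recruit CIITA to class II promoters, 4 rose and 2 fell in EuMyc against WT (median log2 fold change 0.43), where 36.7% of all genes were higher and 34.9% lower. In EuMyc Max KO against EuMyc, 1 rose and 5 fell (median -0.38), where 37.6% of all genes were higher and 36.1% lower. A count of 6 of 7 called is near the share of all genes called, 71.6% and 73.7% in these comparisons. The NF-Y subunits rose in EuMyc against WT, with log2 fold changes of 0.54 for Nfya, 0.63 for Nfyb and 0.43 for Nfyc, as did the RFX subunit Rfxap with 0.59. Rfx5, the DNA-binding subunit of RFX, was the sole factor of the 7 to fall in the first comparison and rise in the second. It averaged 150.8 ± 14.4 CPM in EuMyc Max KO, 95.2 ± 7.30 CPM in EuMyc, 177 ± 2.07 CPM in Max KO and 164 ± 2.74 CPM in WT mice (SD, n = 3 each). It fell by 0.79 on the log2 scale in EuMyc against WT and rose by 0.66 in EuMyc Max KO against EuMyc. Rfxank fell by 0.61 in EuMyc against WT, and Creb1 was not called there (0.06). None of the 7 was called in Max KO against WT.

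Of 10 regulators of Ciita tested, 9 fell and 1 rose in EuMyc against WT (median -0.91), where 34.9% of all genes were lower and 71.6% called. In EuMyc Max KO against EuMyc, 8 rose and 1 fell (median 0.62), where 37.6% of all genes were higher and 73.7% called. Irf8, which promotes Ciita transcription in B cells, averaged 541 ± 18.6 CPM in EuMyc Max KO, 212 ± 17.4 CPM in EuMyc, 622 ± 65.1 CPM in Max KO and 560.2 ± 8.61 CPM in WT mice (SD, n = 3 each). Its log2 fold changes were -1.40 in EuMyc against WT and 1.35 in EuMyc Max KO against EuMyc. Irf1 (-1.56 and 1.48), which acts on the interferon-inducible promoter of Ciita, moved likewise, as did Spi1 (-0.49 and 0.36), the gene of PU.1, and Pax5 (-0.75 and 0.40). Irf4 went the other way, with log2 fold changes of 0.62 in EuMyc against WT and -0.96 in EuMyc Max KO against EuMyc. In Max KO against WT it was the sole gene of the 10 called, with a log2 fold change of -0.26 (adjusted p = 0.0444, quasi-likelihood test of edgeR, Benjamini-Hochberg adjusted).

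Prdm1, which encodes BLIMP1, a repressor of Ciita in plasma cells, was lowest in EuMyc mice, as Ciita was. It averaged 15.6 ± 2.07 CPM in EuMyc Max KO (SD, n = 3) and had 2.71, 2.34 and 4.28 CPM in EuMyc, 14.8, 11.1 and 10.1 CPM in Max KO and 10.8, 15.5 and 19.1 CPM in WT mice. Its log2 fold changes were -2.28 in EuMyc against WT and 2.33 in EuMyc Max KO against EuMyc, the same signs as those of Ciita. The part of Prdm1 in the level of Ciita was not tested.

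Of 13 genes tested that process antigen in endosomes, 10 fell and none rose in EuMyc against WT (median -0.65; 34.9% of all genes lower, 71.6% called), and 12 rose in EuMyc Max KO against EuMyc (median 1.11; 37.6% of all genes higher, 73.7% called). Ctss, the cathepsin that cleaves the invariant chain in B cells, averaged 627 ± 16.3 CPM in EuMyc Max KO, 149 ± 17.3 CPM in EuMyc, 748 ± 45.1 CPM in Max KO and 575 ± 5.41 CPM in WT mice (SD, n = 3 each). Its log2 fold changes were -1.95 in EuMyc against WT and 2.08 in EuMyc Max KO against EuMyc. Unlike the 10 class II genes it was also called in Max KO against WT, with 0.38 (adjusted p = 0.00816, quasi-likelihood test of edgeR, Benjamini-Hochberg adjusted). Ctsh had log2 fold changes of -2.03 in EuMyc against WT and 1.72 in EuMyc Max KO against EuMyc. Ctsb and Ctsd, abundant in macrophages, were not called in EuMyc against WT (-0.30 and 0.15), and Ctsb had 2611, 1707 and 1125 CPM in EuMyc Max KO mice, in the order of their macrophage marker sums.

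Among genes of class II turnover and traffic, 7 of 12 tested fell and 2 rose in EuMyc against WT (median -0.55). In EuMyc Max KO against EuMyc, 7 rose and none fell (median 0.85). Over all genes, 34.9% were lower and 36.7% higher in the first comparison, and 37.6% higher and 36.1% lower in the second. In either direction 71.6% and 73.7% of all genes were called. The share called in this list is near that in the first comparison and under it in the second. March1, the ubiquitin ligase that removes class II molecules from the surface of B cells, had 198, 202 and 243 CPM in EuMyc Max KO, 44.0, 36.3 and 42.8 CPM in EuMyc, 237, 221 and 228 CPM in Max KO and 279.8, 300.5 and 280.1 CPM in WT mice. Its log2 fold changes were -2.81 in EuMyc against WT, 2.39 in EuMyc Max KO against EuMyc and -0.33 in Max KO against WT (adjusted p = 0.0247 for the last, quasi-likelihood test of edgeR, Benjamini-Hochberg adjusted). The RNA for a negative regulator of class II at the surface thus fell along with the RNA for class II. Its relative March8 rose by 1.88 in EuMyc against WT and had 185, 119.9 and 39.1 CPM in EuMyc Max KO mice, again highest in the library with the highest erythroid sum.

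A further list held 8 genes whose products accompany class II in signalling to T cells, of which Cd274 and Pdcd1lg2 encode inhibitory ligands. They fell in EuMyc against WT in 8 of 8 cases (median -2.49) and rose in EuMyc Max KO against EuMyc in 8 of 8 (median 3.07). Tnfsf4, also in the list, had only 1 read in each EuMyc library. Over all genes, 34.9% were lower in the first comparison and 37.6% higher in the second. Icosl had 256, 313 and 307 CPM in EuMyc Max KO, 20.8, 17.4 and 29.2 CPM in EuMyc, 395, 386 and 433 CPM in Max KO and 324, 336 and 337 CPM in WT mice. Cd83, which opposes March1 in dendritic cells, had log2 fold changes of -3.04 in EuMyc against WT and 3.36 in EuMyc Max KO against EuMyc. Cd86 (-1.53 and 2.08) and Cd40 (-2.10 and 1.85) moved the same way in these comparisons. The alternatives described for the 10 class II genes were not run for these lists.

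**Figure D5:**
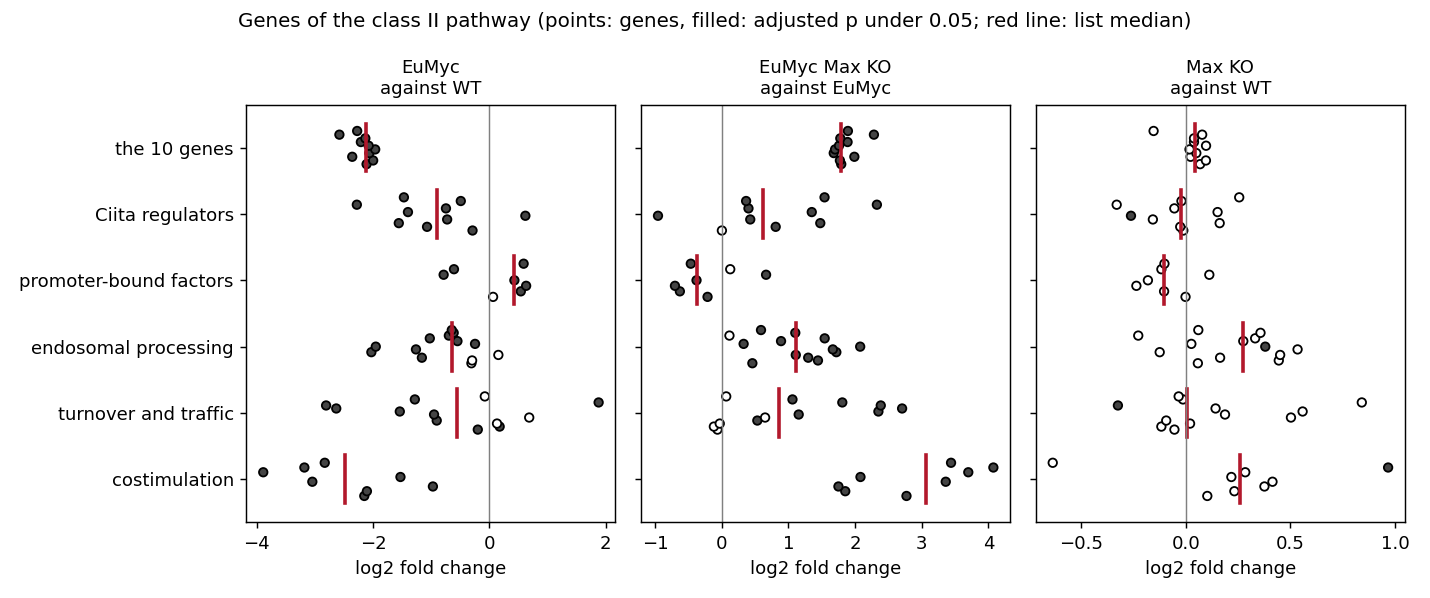
Log2 fold change (horizontal axis, scaled separately in each panel) of the 10 class II genes and of 5 lists of related genes, with panels for EuMyc against WT, then for EuMyc Max KO against EuMyc, then for Max KO against WT. Points are genes, filled points have an adjusted p under 0.05 and red lines are list medians. The medians of the promoter-bound factors, 0.43 and -0.38 in the first 2 panels, lie on the other side of 0 from those of the 10 genes, -2.12 and 1.79.

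The genes closest in pattern to the class II genes were sought among 9777 tested genes outside the 10. These had a mean of at least 5 CPM, and immunoglobulin genes and symbols of the Gm, LOC and Rik kinds were left out. Closeness was the root-mean-square difference of log2 CPM, each gene taken relative to its own mean over the 12 libraries. Against the median of 8 members (without H2-Ob and Ciita), the closest were Cnn2 (0.0532), Mif4gd (0.0828), Foxj2 (0.105), Gapt (0.105), Il10ra (0.107) and Ctsh (0.111). Against Ciita they were Cnn2 (0.0741), Pkib (0.0870), Coro2a (0.0951), Ptprc (0.101), Mif4gd (0.103) and Il2rg (0.104). Cnn2, the gene of calponin 2, had 304, 309 and 362 CPM in EuMyc Max KO, 89.1, 77.1 and 106 CPM in EuMyc, 391, 401 and 408 CPM in Max KO and 408, 379 and 384 CPM in WT mice. Ptprc is the gene of CD45, the protein whose B220 form was used to sort the cells. Of the class II genes themselves, H2-DMa was closest to Ciita on this scale (0.0729) and H2-Oa farthest (0.283). The set of 8 was fixed by hand, with H2-Oa kept and H2-Ob (0.137 from Ciita) left out, and other sets of members were not tried. All these distances come from the same 12 libraries.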

How the data were processed

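RNA of B220+ splenocytes from 12 mice was sequenced, 3 mice per genotype. Per the submitters' processing notes, bcl2fastq 1.8.4, TopHat2 2.1.0 and HTSeq 0.6.1 were used with build mm10. The authors deposited raw counts of reads for each gene symbol, with no normalization. Annotation, strand setting and read length: not given in the sources used here. Entries that name no gene (per library, 12.5 to 20.3% no feature, 20.3 to 27.9% not unique and 0.748 to 1.45% ambiguous) stayed out of library sizes and tests.

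With R 4.3.3 and edgeR 4.0.16, filterByExpr on the 4 groups left 12878 genes. After TMM scaling, glmQLFit (robust) and glmQLFTest were run on the 12 libraries in 1 model, leaving 8 residual degrees of freedom. P-values were adjusted by Benjamini-Hochberg over all genes tested, at a threshold of 0.05. With 3 mice against 3, the smallest p of an exact permutation test is 0.1. The model was also run on simulated counts in which few genes changed and all genes shared the same relative spread. That setting differs from these data, where 71.6% of genes were called in EuMyc against WT. It does not test calls made when most genes move. The alternatives were other scalings, no filter, DESeq2 1.42.0, fits of only the groups compared, the replicate number as a block, and each library left out. Named genes are the 10 members, Max, Myc, genes of the lists and the 6 nearest in pattern. The members and lists were chosen with earlier results of these data known. No pair of libraries was alike within sampling noise. Deviations from the group means of same-numbered libraries correlated at 0.24 to 0.52 in all 3 pairs of Max KO and WT mice, which were therefore also fitted as pairs. For no other 2 groups did all 3 pairs exceed 0.1. Differently numbered Max KO and WT libraries correlated at -0.41 to 0.12, but Max KO replicate 1 and EuMyc Max KO replicate 2 at 0.31. The pairing comes from these correlations, not from the labels.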

Additional observations from a re-analysis of the deposited data

Results flagged for a closer look

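For all 10 genes the effect of losing Max differed between mice with and without the EuMyc transgene by a test of the difference itself, the interaction in the edgeR quasi-likelihood test, Benjamini-Hochberg adjusted. On the log2 scale it was 1.68 for Ciita (adjusted p = 5.47e-06), 1.97 for H2-Aa (adjusted p = 4.02e-06), 1.63 for H2-Ab1 (adjusted p = 3.14e-06), 1.74 for H2-Eb1 (adjusted p = 1.54e-06) and 1.72 for Cd74 (adjusted p = 1.78e-06). Among the accessory genes it was 1.68 for H2-DMa (adjusted p = 2.35e-06), 1.66 for H2-DMb1 (adjusted p = 6.24e-07), 1.85 for H2-DMb2 (adjusted p = 3.31e-05), 2.20 for H2-Oa (adjusted p = 5.2e-05) and 2.05 for H2-Ob (adjusted p = 1.45e-06), by the same test. For each gene all EuMyc Max KO libraries were above all EuMyc libraries, and the ranges of Max KO and WT libraries overlapped. Such separation and overlap were not counted over all genes. What produced the difference was not tested.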

How the results depend on the processing

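Under all alternatives the counts of called class II genes were 10 lower in EuMyc against WT, 10 higher in EuMyc Max KO against EuMyc, 10 with a positive interaction and 0 in Max KO against WT, also without any 1 library. No log2 fold change on the called side of the threshold reversed. The smaller differences were less stable. In EuMyc Max KO against WT the 5 calls became 3 with library totals in place of TMM, and 0 to 9 with single libraries left out (0 without WT replicate 1 or EuMyc Max KO replicate 1 or 2, 1 and 2 if WT replicate 2 or 3 was dropped, 3 without Max KO replicate 1 or 2 or EuMyc replicate 1, 8 without EuMyc replicate 3, 9 without EuMyc Max KO replicate 3). In EuMyc Max KO against Max KO the 4 calls became 1 to 8 with single libraries left out, and only H2-DMb1 was called under every alternative. Over all genes, the calls in Max KO against WT numbered 1933, but 808 and 1206 on leaving out WT replicate 1 or 3, and 889 and 1060 on leaving out Max KO replicate 1 or 2. Those in EuMyc Max KO against Max KO numbered 1853, 851 with only the groups compared, 1057 to 1078 without EuMyc Max KO replicate 1 or 2 or Max KO replicate 1 or 3, and 2846 without EuMyc Max KO replicate 3. Those in EuMyc Max KO against WT numbered 3581, and 2379 without EuMyc Max KO replicate 1. Library totals gave 1130 higher and 719 lower genes in Max KO against WT, where TMM gave 936 and 997, and upper-quartile factors 1215 higher and 695 lower in EuMyc Max KO against Max KO, where TMM gave 1378 and 475. The median of all genes shifted by -0.13 (upper-quartile) and -0.10 (totals) in EuMyc against WT and by 0.12 (totals) in EuMyc Max KO against EuMyc, with no class II gene changing direction. In all 12 libraries, the replicate number as a block left the calls of 10, 10, 10 and 0 as they were and gave 6 calls each in EuMyc Max KO against WT and against Max KO. No ratio test passed under any of its alternatives. The cause of these changes was not tested. At 3 mice per group, the 95% confidence intervals in Max KO against WT bound each gene's difference, from -0.42 at the lowest to 0.48 at the highest on the log2 scale. A fit of Max KO and WT libraries alone with the replicate number as a block, added after seeing the data, also called 0 of the 10, and 2570 of 12270 genes in all.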
